A study of Homo sapiens with 4 samples.

Results

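KLHL9, KBTBD6 and KBTBD7 are Kelch-repeat genes that consist of a single exon. They are described here together with their multi-exon relatives KLHL13, KBTBD8 and KLHL21 and with CUL3, the scaffold of the ubiquitin ligase that these proteins serve. The 7 genes were chosen by name from the 28775 genes in the count table, because KLHL9 and KBTBD7 were higher in MORC2 knockout (KO) cells in an earlier look at these data. The fold changes of the members were therefore known when they were chosen and are given as a description. RNA-seq was performed on HEK293T, a transformed human embryonic kidney cell line, in 2 MORC2 KO samples and 2 wild-type (WT) samples. The KO samples were bulk populations edited with Cas9 and a gRNA against MORC2, gRNA 1 in replicate 1 and gRNA 2 in replicate 2, and were not single clones. The WT samples are labelled as wild type, and no further treatment of any sample is named. The KO cells were electroporated and passaged, and no such handling of the WT cells is described. Its effects cannot be told apart from those of genotype. MORC2 is an ATPase that compacts DNA in vitro, and the comparison asks which transcripts change in level when it is lost.

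BTB-Kelch proteins are substrate receptors of CUL3 ligases. The BTB domain binds the amino-terminal part of CUL3, the Kelch repeats fold into a propeller that holds the substrate, and the RING protein RBX1 at the other end of CUL3 recruits the ubiquitin-loaded enzyme. The ligase is switched on when NEDD8 is attached to the cullin and switched off when the COP9 signalosome removes it. KLHL9 and KLHL13 act as a pair, and with KLHL21 they are known for marking the mitotic kinase Aurora B for its relocation in dividing cells. KBTBD6 and KBTBD7 also act as a pair and are known for degrading TIAM1, an activator of the GTPase RAC1, at membranes that carry GABARAP. KBTBD8 marks the ribosome biogenesis factors NOLC1 and TCOF1 during neural crest specification.

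The data are counts of read pairs per gene, with totals of 59803625 and 64312514 in replicates 1 and 2 of the MORC2 KO and of 60331708 and 53970043 in those of WT. After removal of low counts 16675 genes were tested, and all 7 members were among them. Levels are given in CPM, counts relative to a TMM-scaled library size, and between genes in CPM per kb of exon. Fold changes are MORC2 KO over WT on the log2 scale, with the standard error from edgeR, and a gene was called when its adjusted p was below 0.05. The MORC2 KO samples differed from each other more than the WT samples did, with a chi-square per degree of freedom of 16.8 against 6.56. MORC2 KO replicate 2 lay farther from the WT mean than replicate 1 for 69.1% of the genes tested.

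Sequence bears on how the pairs could be measured. The coding sequences of KBTBD6 and KBTBD7, 2025 and 2055 bases including the stop codon, were identical at 91.8% of aligned bases, and those of KLHL9 and KLHL13, 1854 and 1815 bases, at 87.3%. The other 13 pairs among the 6 receptors were identical at 52.9% to 62.8% of aligned bases. The longest stretch that KBTBD6 and KBTBD7 share without a difference runs over 301 bases, from coding base 752 to 1052 in both. The end of it is shown with the 65 bases that follow, from GENCODE 29 on GRCh38 at chr13:41131395-41131524 for KBTBD6 and chr13:41193141-41193270 for KBTBD7, both on the minus strand. Capitals mark the 10 bases that differ.
KBTBD6: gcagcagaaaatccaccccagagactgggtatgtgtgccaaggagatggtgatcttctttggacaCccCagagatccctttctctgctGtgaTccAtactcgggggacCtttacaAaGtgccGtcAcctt
KBTBD7: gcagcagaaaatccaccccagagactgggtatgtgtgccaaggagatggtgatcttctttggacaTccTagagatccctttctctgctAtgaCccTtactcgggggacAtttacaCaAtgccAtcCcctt
A read of 65 bases that falls in the first part of these lines fits both genes, and one that falls in the second part can be placed. The longest stretch that KLHL9 and KLHL13 share is 54 bases, shorter than a read. It is printed with its flanks, at chr9:21333287-21333416 for KLHL9 and chrX:117899177-117899306 for KLHL13, on the minus strand of GRCh38. Capitals mark the 6 bases that differ.
KLHL9: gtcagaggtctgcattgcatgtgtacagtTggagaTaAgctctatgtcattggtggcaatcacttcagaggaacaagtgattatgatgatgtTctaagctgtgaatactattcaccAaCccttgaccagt
KLHL13: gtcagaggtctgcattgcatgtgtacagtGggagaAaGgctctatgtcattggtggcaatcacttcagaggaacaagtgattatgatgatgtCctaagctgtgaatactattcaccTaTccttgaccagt
Of the 4670 windows of 65 bases in the KBTBD7 transcript, 409 were also found in KBTBD6 and 11.6% in any other gene of GENCODE 29. For KBTBD6 the share in other genes was 8.31% of 5114 windows, and for CUL3 it was 7.11%, all of it in the transcript AC073052.2. No window of KLHL9, KLHL13, KLHL21 or KBTBD8 occurred in another gene. The authors counted read pairs that map to several places, by the command recorded with the counts, although the methods speak of default options. Whether any pair was counted at both KBTBD6 and KBTBD7 cannot be read from the counts, and the values of these genes are less certain than those of KLHL9. None of the 7 members had an exonic base in common with another gene of the table.

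Promoter sequences from RefSeq on GRCh38.p14 were matched for 5 of the 7 members. The 250 bases upstream of the start are shown for KLHL9, chr9:21335405-21335654, and for KBTBD6, chr13:41132803-41133052, the single-exon members with an entry in the table. Both are on the minus strand, and capitals mark CG pairs.
KLHL9: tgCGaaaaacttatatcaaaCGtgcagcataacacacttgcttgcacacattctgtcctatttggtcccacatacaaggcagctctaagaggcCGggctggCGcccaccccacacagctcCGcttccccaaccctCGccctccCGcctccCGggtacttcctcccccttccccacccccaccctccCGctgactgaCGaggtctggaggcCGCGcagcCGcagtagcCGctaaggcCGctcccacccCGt
KBTBD6: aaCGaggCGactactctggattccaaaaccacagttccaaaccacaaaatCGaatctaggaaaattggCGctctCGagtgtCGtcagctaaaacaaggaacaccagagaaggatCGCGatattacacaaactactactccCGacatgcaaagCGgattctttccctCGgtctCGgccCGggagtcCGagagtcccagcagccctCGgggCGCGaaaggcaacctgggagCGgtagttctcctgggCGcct
KLHL9 has 16 CG pairs and KBTBD6 has 19 in this window, where the median of 35116 promoters of the same length is 11. Promoters with fewer CG pairs made up 59.0% of the table for KLHL9 and 65.4% for KBTBD6. KLHL13 and CUL3 each have 2 promoters in the table, the upstream one with 23 CG pairs and the downstream one with 1. KLHL21 had 38 CG pairs, more than 96.7% of promoters.

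MORC2 itself was measured first, as a check of the labels. Its level was 51.2 and 55.0 CPM in MORC2 KO replicates 1 and 2 and 86.2 and 87.7 CPM in WT replicates 1 and 2. Both MORC2 KO samples were below both WT samples, by 0.71 ± 0.060 (SE, n = 2 and 2) on the log2 scale (edgeR quasi-likelihood test, adjusted p = 0.000137). The transcript remained at 0.611 of the WT level. In bulk edited cells, unedited cells and less MORC2 RNA per cell cannot be told apart. Counts per gene do not separate edited from unedited transcripts. They do not measure MORC2 protein either, for which the study used a western blot. Of the exonic bases of MORC2, 23.3% lie over the antisense gene MORC2-AS1, where read pairs that fell on both genes were left out. Across the series 98 of the 16675 genes (0.588%) were called higher in MORC2 KO and 5 (0.0300%) were called lower, 0.618% in all. This balance depended on the samples kept. Without MORC2 KO replicate 1 many more genes were called, and more of them lower than higher.

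KLHL9 was the member that passed the threshold. It lies on chromosome 9 from 21343833 to 21349574 on the minus strand of T2T-CHM13v2.0, in an exon of 5742 bases. Its level was 115.8 and 113.8 CPM in the MORC2 KO samples against 94.2 and 95.1 CPM in the WT samples. The groups did not overlap and each pair of replicates lay close together, with means of 114.8 ± 1.40 and 94.7 ± 0.672 CPM (SD, n = 2). KLHL9 was 1.21-fold higher in MORC2 KO cells, a log2 fold change of 0.28 ± 0.056 (SE). KLHL9 ranked 101 of the 103 genes called in either direction, so it stood just inside the threshold, at an adjusted p of 0.0482. Leaving out either WT sample raised this value to 0.400 or 0.429, and scaling with DESeq2 size factors to 0.0612, while its fold change stayed between 0.25 and 0.32 on the log2 scale under every setting tried.

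KLHL13, the partner of KLHL9, went the other way. Its gene on chromosome X from 116275375 to 116494936 has 12 exons in the table. It stood at 33.6 and 32.8 CPM in the MORC2 KO samples against 36.4 and 35.6 CPM in the WT samples. Both MORC2 KO samples were below both WT samples, with a log2 fold change of -0.12 ± 0.061 (SE) that did not pass the threshold (adjusted p = 0.399). Per kb of exon, KLHL9 was 2.73 and 2.75 times as abundant as KLHL13 in the MORC2 KO samples against 2.05 and 2.12 times in the WT samples. This ratio was looked at after the values of both genes were known.

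KBTBD7, with 1 exon on chromosome 13 from 40408967 to 40413700, had the larger fold change of the genes that led to the choice but stood just outside the threshold, at an adjusted p of 0.0877. It was covered by 938 and 959 counts in the MORC2 KO samples against 685 and 627 in the WT samples. These counts were 15.7 and 14.5 CPM in the MORC2 KO samples against 11.5 and 11.8 CPM in the WT samples. The groups did not overlap, and the MORC2 KO samples lay farther apart than the WT samples. KBTBD7 was 1.30-fold higher, a log2 fold change of 0.37 ± 0.084 (SE). When a sample was left out its adjusted p ranged from 0.00259 without MORC2 KO replicate 2 to 0.349 without WT replicate 1. It was 0.0460 with correction for GC content and gene length, 0.00403 without the filter on low counts, 0.121 with DESeq2 and 0.148 with loess offsets on abundance.

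KBTBD6, the partner of KBTBD7, is a single-exon gene that lies 57.0 kb from it on the same strand, from 40346698 to 40351926. Its level was 52.6 and 51.4 CPM in the MORC2 KO samples against 43.9 and 46.4 CPM in the WT samples. Both MORC2 KO samples were above both WT samples. The log2 fold change was 0.20 ± 0.060 (SE), which did not pass the threshold (adjusted p = 0.183). KBTBD7 had 0.329 and 0.312 times the level of KBTBD6 per kb in the MORC2 KO samples against 0.289 and 0.28 times in the WT samples. Read pairs from the stretches that both genes share could have been assigned to either gene.

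KBTBD8, with 4 exons on chromosome 3, had overlapping groups. Its level was 17.4 and 14.2 CPM in the MORC2 KO samples against 17.0 and 17.9 CPM in the WT samples. MORC2 KO replicate 1 was at the WT level, 0.005 below it on the log2 scale, and replicate 2 was 0.30 below it. The log2 fold change was -0.15 ± 0.097 (SE; adjusted p = 0.498). Leaving out MORC2 KO replicate 1 moved it to -0.31, and leaving out MORC2 KO replicate 2 moved it to -0.003.

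KLHL21, which has 4 exons on chromosome 1, stood at 58.4 and 56.1 CPM in the MORC2 KO samples against 62.3 and 62.4 CPM in the WT samples. The log2 fold change was -0.12 ± 0.058 (SE; adjusted p = 0.355). CUL3, with 17 exons on chromosome 2, stood at 133.9 and 127.0 CPM in the MORC2 KO samples against 141.0 and 142.8 CPM in the WT samples. Its log2 fold change was -0.12 ± 0.058 (SE; adjusted p = 0.361). For both genes the MORC2 KO samples were below the WT samples, with replicate 2 the lower, and neither passed the threshold. When MORC2 KO replicate 1 was left out both were called lower, at a log2 fold change of -0.17 for each, as were 2117 of the 17129 genes then tested.

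**Figure D1:**
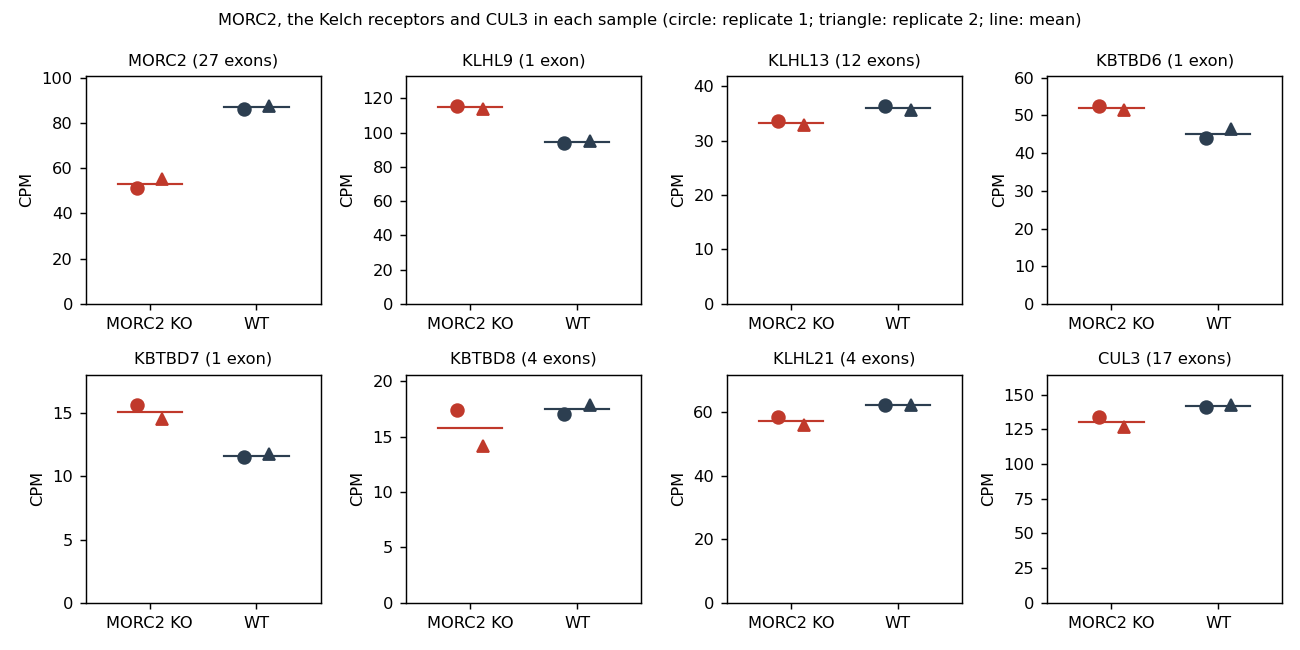
Level of MORC2 and the 7 members in CPM (y axis, from 0) in each MORC2 KO and WT sample (x axis). Points are samples and lines are means. KLHL9, KBTBD6 and KBTBD7 were higher in both MORC2 KO samples, KLHL13, KLHL21 and CUL3 were lower in both, and the KBTBD8 samples overlapped.

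The 3 single-exon members had MORC2 KO samples above the WT samples, and 3 of the 4 multi-exon members had them below. KLHL9 and KBTBD7 were chosen because they were higher, so no contrast between single-exon and multi-exon genes can be drawn from these counts. Over all genes tested, 24.1% had both MORC2 KO samples above both WT samples and 23.4% had them below, so that a lack of overlap was common with 2 samples per group. All 4 multi-exon members had negative log2 fold changes, between -0.15 and -0.12. The median over all genes tested was 0.01.

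The order of levels also differed between the groups. KLHL9 and KBTBD7 were chosen for being higher in MORC2 KO, so their changed places in this order are a description. In WT cells CUL3 was highest of the members at 20.2 ± 0.183 CPM per kb (SD, n = 2), followed by KLHL9 at 16.5 ± 0.117 and KLHL21 at 12.6 ± 0.014. KBTBD6 was at 8.64 ± 0.333, KLHL13 at 7.91 ± 0.123, KBTBD8 at 3.73 ± 0.133 and KBTBD7 at 2.46 ± 0.040 CPM per kb. No neighbours in this order overlapped between their samples. In MORC2 KO cells KLHL9 stood first at 19.99 ± 0.244 CPM per kb and CUL3 second at 18.6 ± 0.695, and their samples did not overlap. KBTBD8 at 3.37 ± 0.485 and KBTBD7 at 3.19 ± 0.175 CPM per kb could not be ordered in MORC2 KO cells, since their samples overlapped.

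The wider family of BTB-Kelch genes was listed from its symbols, 52 genes in all, of which 42 passed the filter on low counts. KLHL9 was the only one of the 42 called higher, and it had been chosen for this. Over all genes tested 0.588% were called higher and 0.618% in either direction. Among the other 40 without KLHL9 and KBTBD7, 0 were called by edgeR and 0 by DESeq2. Without MORC2 KO replicate 1 some of these 40 were called, in a fit that also called many more of all genes tested. Leaving out any other single sample left this result unchanged. At an unadjusted p under 0.05 there were 5, or 12.5%, against 14.3% of all genes tested. The log2 fold change was positive in 29 of these 40, or 72.5%, against 51.5% of all genes tested. Both MORC2 KO samples were above both WT samples in 12 of the 40 and below them in 4, where the shares over all genes were 24.1% and 23.4%. The median log2 fold change was 0.05 over the 42 genes and 0.04 over the 40. KEAP1, the receptor that controls the oxidative stress factor NRF2, was the most abundant at 37.0 CPM per kb in WT cells. Its log2 fold change was 0.00 ± 0.063 (SE).

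Within the family, 6 genes had 1 exon in the table. KLHL9, KBTBD6 and KBTBD7 are the 3 that passed the filter on low counts. The other 3 were at or near 0. KBTBD13, a muscle gene, had 1 to 3 counts per sample, CCIN, which encodes the sperm head protein calicin, had 2 to 8, and KLHL34 had 0 in all 4 samples. The 39 tested genes with more than 1 exon had a median log2 fold change of 0.04, with MORC2 KO samples above WT samples in 11 and below them in 4, against 24.1% and 23.4% of all genes. By fold change KBTBD7 ranked 4, KLHL9 ranked 5 and KBTBD6 ranked 7 of 42, behind less abundant genes with larger errors. KLHL14 had the highest fold change, 0.80 ± 0.320 (SE), at 0.746 CPM in MORC2 KO cells and 0.430 CPM in WT cells, and is named here after its values were seen.

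**Figure D2:**
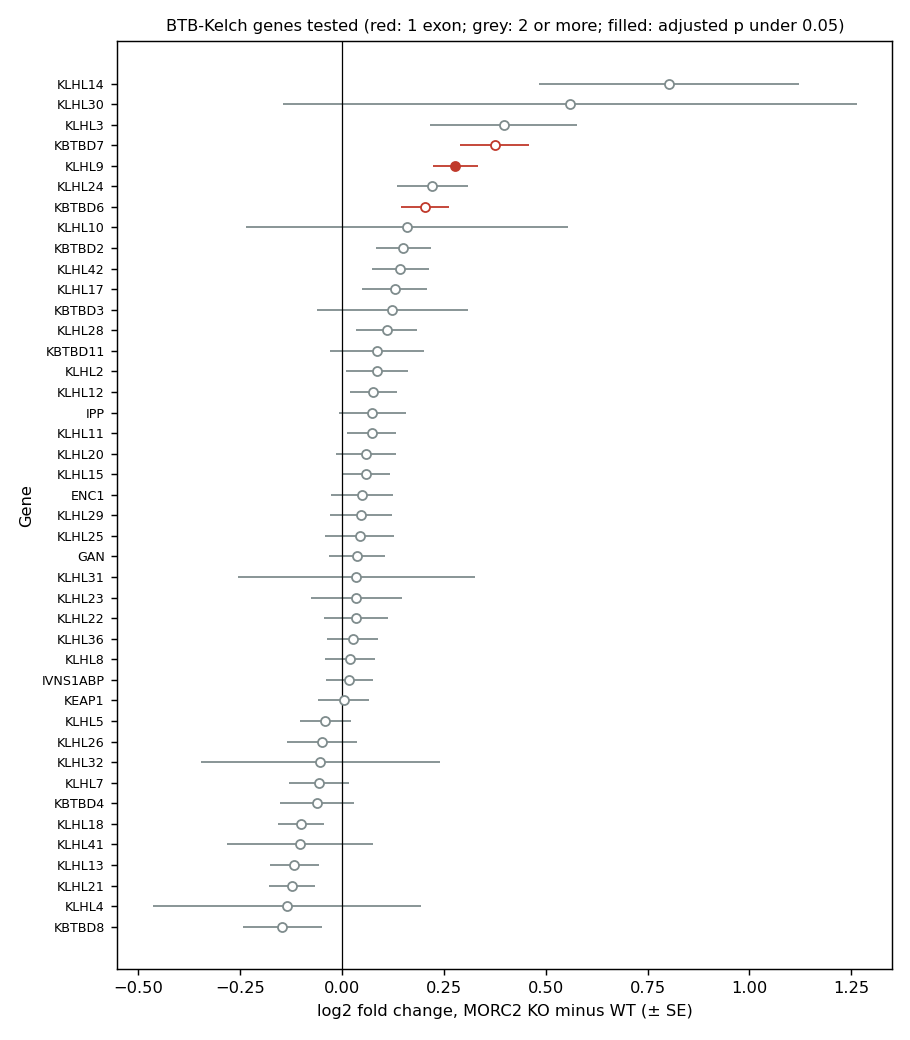
Log2 fold change of MORC2 KO over WT with its standard error (x axis) for the 42 BTB-Kelch genes tested (y axis, ordered by fold change). Red points are genes with 1 exon and the filled point is the gene called. KBTBD7, KLHL9 and KBTBD6 lie between 0.20 and 0.37, and the median of the 42 is 0.05.

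CUL3 also takes receptors with a BTB domain and no Kelch repeats. All 21 such genes listed were tested and 0 were called by edgeR or by DESeq2, where edgeR called 0.618% of all genes tested. There were 3 with an unadjusted p under 0.05, 2 of them higher and 1 lower in MORC2 KO, or 14.3% as over all genes tested. The median log2 fold change was 0.01. KCTD11, a single-exon gene known as a brake on Hedgehog signalling, had the smallest p. Its level was 7.44 and 8.45 CPM in the MORC2 KO samples against 6.44 and 6.69 CPM in the WT samples, a log2 fold change of 0.28 ± 0.110 (SE; adjusted p = 0.297). ABTB1 had a log2 fold change of 0.33 ± 0.139 (SE), and the gene of these 3 that was lower had -0.19 ± 0.079 (SE). BTBD1, the most abundant at 53.6 CPM per kb in WT cells, had -0.08 ± 0.056.

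The machinery list holds the components that load, exchange and regulate the ligase. Among its 28 genes, 0 were called by edgeR or DESeq2, where edgeR called 0.618% of all genes tested. There was 1 with an unadjusted p under 0.05, or 3.57% against 14.3% of all genes. The log2 fold change was negative in 23 of the 28, or 82.1% against 48.5% of all genes, with a median of -0.06. UBE2M, the enzyme that conjugates NEDD8 and the most abundant of the list at 116.0 CPM per kb in WT cells, stood at 127.2 and 111.8 CPM in the MORC2 KO samples against 137.4 and 131.4 CPM in the WT samples. Its log2 fold change was -0.17 ± 0.068 (SE; adjusted p = 0.302). RBX1, the RING subunit, stood at 65.0 and 52.0 CPM in the MORC2 KO samples against 65.4 and 66.3 CPM in the WT samples. MORC2 KO replicate 1 was thus near the WT level and replicate 2 below it, and the log2 fold change was -0.17 ± 0.086 (SE; adjusted p = 0.381).

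Within the machinery list, the COP9 signalosome accounts for 9 genes. All 9 had negative fold changes, with a median of -0.10. Of the 9, 0 were called by edgeR or DESeq2 and 0 had an unadjusted p under 0.05. Over all genes tested these shares were 0.618% by edgeR and 14.3%. In replicate 1 the median difference from WT was -0.01, and in replicate 2 it was -0.20. COPS6, a subunit of the complex, was 0.03 below the WT mean in replicate 1 and 0.24 below it in replicate 2 on the log2 scale. Replicate 2 was farther from WT for 24 of the 28 machinery genes, or 85.7%, against 69.1% of all genes tested. The part of this library in the negative fold changes was not tested.

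The 7 other cullins, scaffolds of related ligases, were compared next. Of these 4 had negative log2 fold changes, or 57.1% against 48.5% of all genes tested, and 3 had positive ones. Their median was -0.05, and 0 were called by edgeR or DESeq2, where edgeR called 0.618% of all genes tested. CUL7, the scaffold of a ligase that binds p53, had the smallest p, the only one of the 7 under 0.05 before adjustment, or 14.3% as over all genes tested. It stood at 36.3 and 40.1 CPM in the MORC2 KO samples against 33.5 and 33.8 CPM in the WT samples, a log2 fold change of 0.18 ± 0.066 (SE; adjusted p = 0.261). CUL9, its nearest relative, had 0.23 ± 0.114 (SE), with overlapping samples. CUL2, the scaffold of the VHL ligase, had -0.12 ± 0.063 (SE), and CUL1, the most abundant per kb, had -0.06 ± 0.057.

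Transcripts of substrates and partners were examined last among the lists. Of 18 genes 17 were tested, and MAP1LC3A was left out with 1 or 2 counts per sample. None was called by edgeR or DESeq2, where edgeR called 0.618% of all genes tested. There were 4 with an unadjusted p under 0.05, 3 higher and 1 lower, or 23.5% against 14.3% of all genes. IRS1, the insulin receptor substrate that KLHL9 is known to target, stood at 10.7 and 12.2 CPM in the MORC2 KO samples against 9.09 and 9.24 CPM in the WT samples. Its log2 fold change was 0.32 ± 0.097 (SE; adjusted p = 0.196). IRS1 was called without the filter on low counts, at an adjusted p of 0.0498 (edgeR). That fit called 463 genes higher and 182 lower, against 98 and 5 as reported. CEBPB, a single-exon transcription factor gene and target of KLHL9, stood at 45.7 and 44.8 CPM in the MORC2 KO samples against 39.4 and 41.1 CPM in the WT samples. The groups did not overlap, and the log2 fold change was 0.17 ± 0.059 (SE; adjusted p = 0.254). NOLC1, the target of KBTBD8, was the most abundant of the list and was lower in both MORC2 KO samples, at 534.3 and 495.9 CPM against 590.2 and 590.6 CPM in WT. Its log2 fold change was -0.20 ± 0.065 (SE; adjusted p = 0.231). Substrates of these ligases are regulated as proteins, which RNA counts do not measure.

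Over the 4 lists together 73 genes were tested, and 0 were called in either direction by edgeR or DESeq2. EdgeR called 0.618% of all genes tested, a share at which lists of this size can hold 0 calls. An unadjusted p under 0.05 was found for 9, or 12.3% against 14.3% of all genes. Without MORC2 KO replicate 1, 25 of these genes were called, in a fit that called 1397 genes higher and 2117 lower of the 17129 tested. Without MORC2 KO replicate 2, or without either WT sample, 0 were called.

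**Figure D3:**
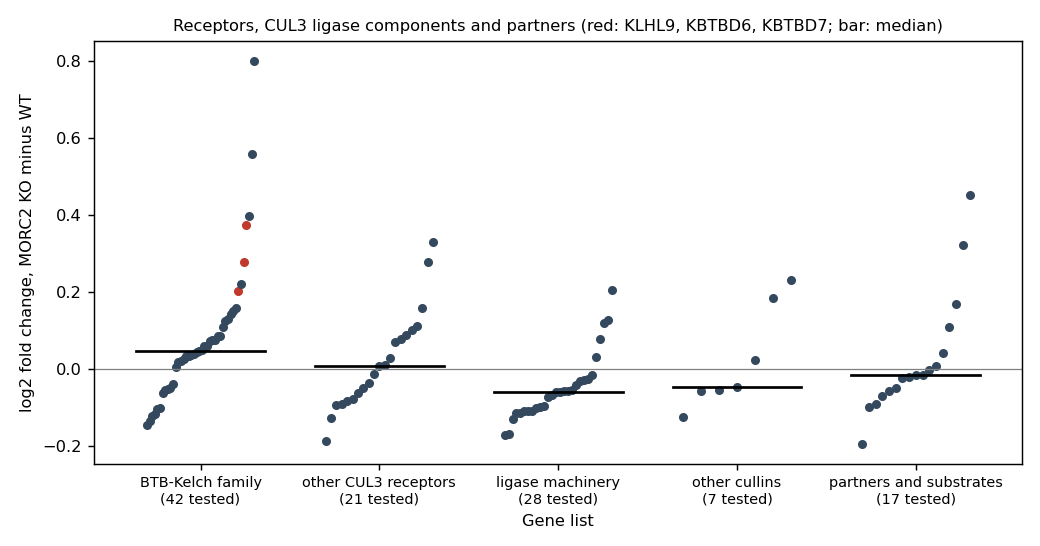
Log2 fold change of MORC2 KO over WT (y axis) for each tested gene of 5 lists (x axis), with bars at the medians. Each point is a gene, and KLHL9, KBTBD6 and KBTBD7 are red. The medians lie between -0.06 for the ligase machinery and 0.05 for the BTB-Kelch family.

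The surroundings of the single-exon members differed. Within 100 kb of KLHL9 the table held 7 genes, all interferon alpha genes or a pseudogene of that family, and all without introns in the table. Their counts were 0 or 1 in every sample, so no difference was detectable at this depth. Around KBTBD6 and KBTBD7 4 other genes were tested, 0 were called by edgeR or DESeq2, and 0 had an unadjusted p under 0.05. Over all genes tested 0.618% were called by edgeR and 14.3% had such a p. ELF1, a transcription factor, had a log2 fold change of 0.08 ± 0.057 (SE), WBP4, a splicing factor, -0.03 ± 0.071, and MTRF1, a mitochondrial translation release factor, -0.08 ± 0.079. KBTBD6-DT, a long noncoding RNA that starts 0.126 kb from KBTBD6 on the other strand and whose span covers KBTBD7, had 62 and 97 counts in the MORC2 KO samples against 71 and 47 in the WT samples. Its log2 fold change was 0.27 ± 0.261 (SE), smaller than 2 standard errors.

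Genes whose pattern over the 4 samples was closest to that of the chosen genes were found by the Euclidean distance between centred log2 CPM values. For KLHL9 they were TMEM187 at 0.0202, ZNF10, a KRAB zinc finger gene, at 0.0252 and NUDT18 at 0.0275 log2 units. None of the 3 was called. For KBTBD7 the nearest was RANBP6, a single-exon importin gene on chromosome 9, at 0.0337. It had 3118 and 3239 counts in the MORC2 KO samples against 2354 and 2128 in the WT samples, a log2 fold change of 0.35 ± 0.060 (SE), and was called higher (edgeR, adjusted p = 0.0204). C18orf32 and TMPRSS13 followed at 0.0423 each and were not called. These distances rest on 4 samples and are a description. Genes near KLHL9 or KBTBD7 in pattern share their direction by the way they were found.

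Markers of the cell line were compared to check the samples. VIM was abundant at 264.4 CPM per kb in MORC2 KO cells and 260.5 in WT cells, and all 8 genes listed as expressed in HEK293T passed the filter. None was called by edgeR or DESeq2, where edgeR called 0.618% of all genes tested. An unadjusted p under 0.05 was found for 1, or 12.5% against 14.3% of all genes. This was NEFM, a neurofilament gene, with a log2 fold change of 0.44 ± 0.108 (SE; adjusted p = 0.118). NEFL had -0.09 ± 0.056 and LHX1 0.48 ± 0.303. LHX1 was low, at 27 to 64 counts per sample, so passing the filter does not mean that a marker was abundant. Of 8 markers of other cell types only CD68 and ALB were tested. CD68 stood at 2.98 CPM in MORC2 KO cells and 2.84 CPM in WT cells, and ALB at 0.181 and 0.144 CPM, with overlapping samples for both. PTPRC, CD3E, HBB, CDH5, PECAM1 and DCN had 0 to 5 counts per sample, so these markers of leukocytes, T cells, red cells, endothelium and fibroblasts were at or near 0, whereas CD68, a macrophage marker, had 132 to 201 counts.

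**Figure D4:**
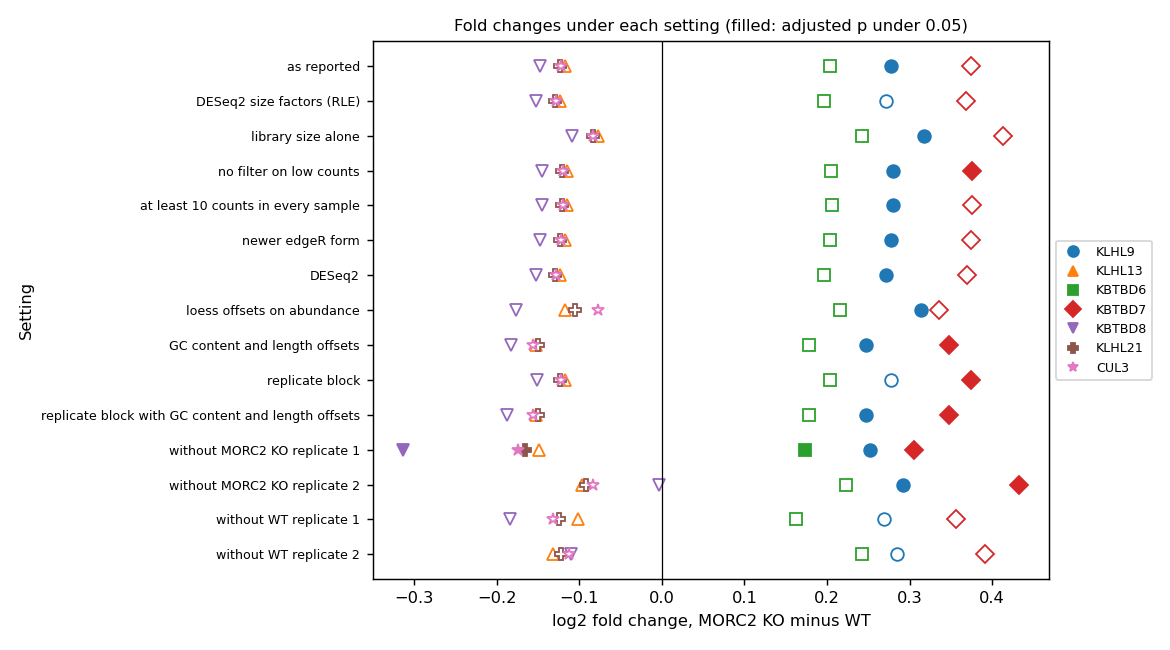
Log2 fold change of MORC2 KO over WT (x axis) for the 7 members under each processing setting (y axis). Filled points passed an adjusted p of 0.05. KLHL9, KBTBD6 and KBTBD7 stayed above 0 and the other 4 below 0 under every setting shown, while the genes called differed.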

How the data were processed

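The authors aligned the read pairs of 65 bases to T2T-CHM13v2.0 with Subread 2.0.6 and counted them with featureCounts on RefSeq genes. The deposited values are raw counts of read pairs per gene, which include multi-mapping pairs, ignore strand and leave out pairs over several genes. Columns of other samples numbered 0. Symbols came from RefSeq GRCh38.p14 by Entrez identifier (28763 of 28775).

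As in the study, genes were filtered with filterByExpr, scaled with TMM factors and compared by genotype with the edgeR quasi-likelihood F-test (edgeR 4.0.16 in its older form, R 4.3.3), with Benjamini-Hochberg adjustment at 0.05. Dividing a log2 fold change by the root of its F statistic gave its standard error. Library totals were 53970043 to 64312514. The replicates are separate samples by their labels, and the methods call those of both genotypes independent.

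The members and the lists were chosen with earlier results of these data known. Genes named are MORC2, the members, called list genes, the 3 of smallest p and the most abundant per kb in each list, single-exon BTB-Kelch genes, neighbours within 100 kb and the 3 nearest patterns. A result that the rule names is not reported here. Alternatives were RLE scaling, library size alone, other filters, the newer edgeR form, DESeq2 1.42.0, loess offsets (span 0.3) on abundance or on GC content and length (GC found for 96.6% of genes), the replicate number and leaving out each sample.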

Additional observations from a re-analysis of the deposited data

How the results depend on the processing

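The 7 members and MORC2 kept their direction under all 14 alternatives that were planned. KLHL9, at a log2 fold change of 0.278, was not called with DESeq2 size factors (0.272), with the replicate block (0.278) or without either WT sample, and ranged from 0.252 to 0.292 when a sample was left out. KBTBD7 was called without a filter on low counts (0.376), with GC content and length offsets (0.348), with the replicate block (0.374), with both (0.348) and without either MORC2 KO sample (0.305 to 0.432 over the samples left out). The ranges over samples left out were 0.163 to 0.243 for KBTBD6, -0.166 to -0.0919 for KLHL21, -0.174 to -0.0828 for CUL3 and -0.313 to -0.00345 for KBTBD8, and each of these was called without MORC2 KO replicate 1. Such fits leave a genotype with 1 sample, which is assumed to vary like the other group.

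The 98 genes called higher and 5 called lower became 463 and 182 without a filter, 187 and 34 with GC content and length offsets, 237 and 42 with the replicate block, and 292 and 78 with the block and those offsets. With DESeq2 17 were lower. Leaving out a sample gave 88 to 1397 higher and 9 to 2117 lower, the largest counts without MORC2 KO replicate 1. BTB-Kelch genes called higher, 1 as reported, were 0 with DESeq2 size factors, 2 without a filter, 2 with GC content and length offsets, 2 with the replicate block and those offsets, and 0 to 7 over the samples left out. The count for the CUL3 lists, 0 as reported, was 1 without a filter and 0 to 25 over the samples left out. The deviations of same-numbered samples had a correlation of -0.124, so the numbers did not pair the samples, and a crossed pairing, added after the data were seen, gave 903 higher and 809 lower. The cause of these differences was not tested.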
